A study of Homo sapiens with 4 samples.

Results

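Expression was followed for 40 genes whose products build the mitotic spindle, attach chromosomes to it at the kinetochore, check that attachment and separate the chromosomes. The members were taken from a list of gene symbols, each of which matched 1 of the 60766 features in the deposited tables, and all 40 passed the filter on low values, a mean of at least 1 FPKM, fragments scaled by mapped total and transcript length. The cells were HCT116, an established human colon carcinoma line. In 2 libraries the cells carried a short hairpin RNA (shRNA) against ARID1A, which encodes a DNA-binding subunit of BAF, a SWI/SNF remodeller of chromatin. The other 2 libraries were labelled control, and the labels do not say what the control cells carried. The series asked how ARID1A relates to immune functions, and the mitotic genes were read here from the same total RNA libraries. Nothing says whether the 2 libraries of a group came from separate cultures, so the p-values measure the spread between these libraries, which may be technical.

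Chromosomes are pulled apart by microtubules that end on kinetochores, protein assemblies built on centromeric chromatin. The inner kinetochore recognises the centromere, and the NDC80 complex of the outer kinetochore grips the microtubule. Unattached kinetochores make a checkpoint signal that holds back CDC20, the activator of the anaphase-promoting complex (APC/C). Once CDC20 is released, the APC/C uses the ubiquitin-conjugating enzyme UBE2C to mark securin (PTTG1) and cyclin B for destruction. Securin's loss frees separase (ESPL1) to cut cohesin, after which the midzone and abscission proteins divide the cell. Transcripts of this machinery peak in G2 and mitosis, and many of their promoters carry a cell cycle homology region (CHR) read by the DREAM, MYBL2 and FOXM1 complexes, together with CCAAT boxes bound by NF-Y.

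The hairpin's target was lower in the knockdown. ARID1A (chr1:26693236-26782104) had 7.05 and 6.13 FPKM in the knockdown libraries, against 11.1 and 11.4 FPKM in the controls. The groups did not overlap, and much of the transcript remained. The change was -0.69 on the log2(FPKM + 1) scale, knockdown minus control (SE 0.077, limma adjusted p = 0.00438). Permuting the libraries exactly gave a two-sided p of 0.333, the smallest possible with 2 libraries against 2. The estimated normalizing totals were 75750000 and 74000000 fragments in the knockdown libraries and 69000000 and 71000000 in the controls. The share of summed FPKM from mitochondrial transcripts was 6.04% and 5.65% in the knockdown libraries, against 4.34% and 4.29% in the controls. Of 8 colon epithelial markers, 6 were at or above 1 FPKM, while CDX1 was listed at 0 in all 4 libraries and VIL1 stayed at or under 0.207 FPKM. The 8 markers summed to 4003 and 4159 FPKM in the knockdown libraries, against 3025 and 2920 FPKM in the controls. KRT8, KRT18 and KRT19 made up most of that sum and were higher in both knockdown libraries, whereas EPCAM was lower, with 147 and 141 FPKM in the knockdown libraries, against 312 FPKM in both controls. The 5 leukocyte markers summed to at most 1.14 FPKM and the 3 endothelial markers to at most 0.171 FPKM in any library. The 4 fibroblast markers summed to 5.88 and 6.17 FPKM in the knockdown libraries, against 4.84 and 3.58 FPKM in the controls, of which COL1A1 was nearly all and COL1A2, DCN and LUM were at or under 0.0136 FPKM. A rescaling without mitochondrial transcripts is given among the alternatives below. What part the mitochondrial and marker differences have in the results was not tested.

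The promoters of 6 members that changed in the knockdown are printed. Both motifs of the G2 and mitosis programme, or only the CCAAT box, are readable in them. NDC80, which has no CCAAT box in its promoter, is not among the 6. Each run is the 150 bases before the RefSeq gene start (GRCh38.p14), 5′ to 3′ on the strand of the gene. Capitals mark a CHR core (TTTGAA, or TTCAAA on the other strand) or a CCAAT box (CCAAT, or ATTGG on the other strand).
CEP55: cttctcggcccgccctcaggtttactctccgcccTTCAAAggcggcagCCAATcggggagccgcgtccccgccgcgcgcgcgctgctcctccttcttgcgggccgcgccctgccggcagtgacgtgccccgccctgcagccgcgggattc
PTTG1: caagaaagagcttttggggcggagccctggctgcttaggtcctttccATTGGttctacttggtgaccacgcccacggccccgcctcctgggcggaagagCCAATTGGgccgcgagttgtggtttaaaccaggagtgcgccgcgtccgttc
CDC20: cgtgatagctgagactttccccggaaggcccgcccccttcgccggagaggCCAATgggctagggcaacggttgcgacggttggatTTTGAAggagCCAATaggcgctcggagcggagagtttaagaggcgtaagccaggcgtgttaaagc
PRC1: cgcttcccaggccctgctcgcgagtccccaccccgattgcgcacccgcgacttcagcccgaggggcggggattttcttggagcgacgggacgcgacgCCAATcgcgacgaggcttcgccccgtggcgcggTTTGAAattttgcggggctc
SPC25: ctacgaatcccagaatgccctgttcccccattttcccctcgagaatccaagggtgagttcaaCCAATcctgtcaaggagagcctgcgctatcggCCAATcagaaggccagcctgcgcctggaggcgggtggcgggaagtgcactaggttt
CENPK: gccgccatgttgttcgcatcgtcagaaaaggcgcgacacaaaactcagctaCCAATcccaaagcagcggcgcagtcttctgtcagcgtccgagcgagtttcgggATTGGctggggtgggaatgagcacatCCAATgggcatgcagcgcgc
They lie at chr10:93496462-93496611 (CEP55, plus strand), chr5:160421705-160421854 (PTTG1, plus), chr1:43358831-43358980 (CDC20, plus), chr15:90994536-90994685 (PRC1, minus), chr2:168890431-168890580 (SPC25, minus) and chr5:65563169-65563318 (CENPK, minus). The first 3 genes rose in the knockdown and the last 3 fell. CDC20, CEP55 and PRC1 show both motifs in the run, while PTTG1, SPC25 and CENPK show CCAAT boxes without a CHR. In PTTG1 a pair of CCAAT boxes on opposite strands overlap, and CEP55 and SPC25 have a further CHR that crosses the gene start and is therefore not in capitals. For PRC1 and SPC25 the RefSeq start lies inside the locus the files give.

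Across the whole window from 250 bases before to 50 after the start, 32 of the 40 members had a RefSeq promoter. A CHR lay in 22 of these 32 (68.8%), against 9.12% of the 9868 promoters of tested genes and 15.4% of all 27305 promoters. A CCAAT box lay in 25 of 32 (78.1%), against 36.7% of the promoters of tested genes. Both were present in 18 of 32 (56.2%), against 3.92% of the promoters of tested genes. An E2F motif (TTTGGCGC, TTTCGCGC, TTTCCCGC or TTTGCCGC) lay in 3 of 32 (9.38%), against 5.51%. Both strands were searched in each case, and in 3 members matches of different motifs or of the same motif overlap. The CHR was found in 6 of 7 late mitotic promoters (85.7%) and in 6 of 11 kinetochore promoters (54.5%). Carrying a CHR did not separate the directions, since 4 of the 22 members with one rose and 4 fell, and 2 of the 10 without one rose and 2 fell.

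**Figure D1:**
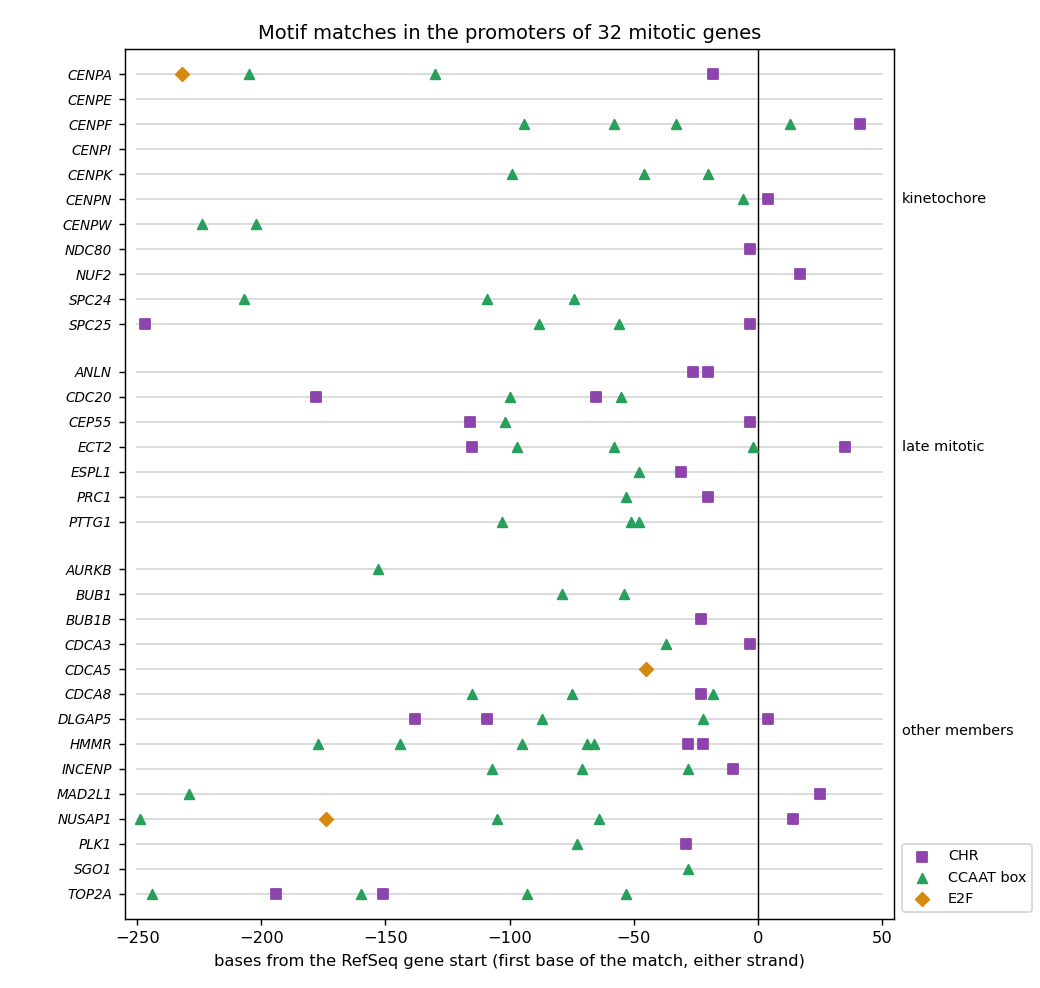
Matches to the CHR (squares), the CCAAT box (triangles) and the E2F motif (diamonds) in the promoters of 32 members, placed by distance in bases from the RefSeq gene start, either strand. Matches are densest just before the start, and 22 of the 32 rows hold a CHR.

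Of the 40 members, 14 changed between ARID1A knockdown and control cells, 7 upward and 7 downward (35.0% of the members). That count became 6 without control 1 or control 2, 8 without knockdown 1 and 11 without knockdown 2. The last 2 counts include members that are not among the 14, HMMR without knockdown 1 and CENPH and CENPM without knockdown 2. A change here means an adjusted p under 0.05 in limma, with the adjustment over all 13605 tested features. By the same rule 37.1% of all tested features changed, 18.2% upward and 18.9% downward, so the members as a whole were not called more often than other genes. Their median change was -0.01 on the log2(FPKM + 1) scale, against -0.00299 for all tested features, and the median size of a change was 0.158, against 0.184. The 2 groups of libraries did not overlap for 26 of the 40 members, while 72.3% of all tested features had no overlap. A log2 change of at least 0.5 in either direction was seen in 4 members, and in 12.0% of all tested features. In bulk RNA, fewer cells in mitosis and less RNA per cell cannot be told apart.

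**Figure D2:**
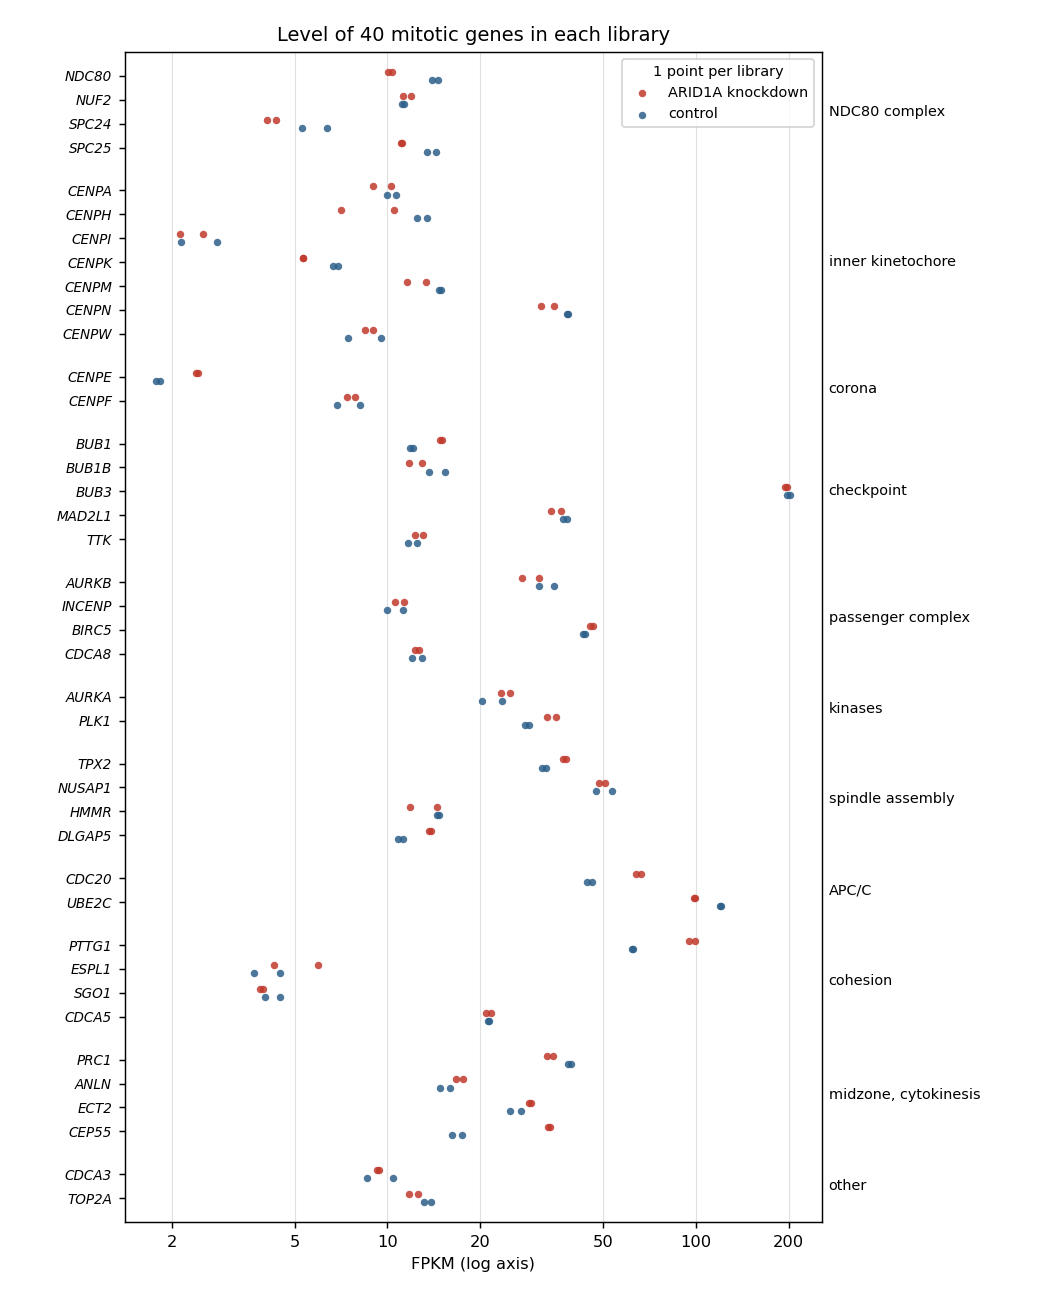
Level of each of the 40 members in FPKM (log axis), with 1 point per library, the 2 ARID1A knockdown libraries in red above the 2 control libraries in blue, grouped by role. CEP55, PTTG1 and CDC20 stand apart to the right in the knockdown, and NDC80, SPC25, CENPK and UBE2C to the left.

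The members' levels spanned from 2.11 FPKM for CENPE, the kinetochore motor that carries chromosomes to the spindle equator, to 197.4 FPKM for BUB3, as means over the 4 libraries. After BUB3 came UBE2C at 109.5, PTTG1 at 79.7, CDC20 at 55.3 and NUSAP1 at 49.99 FPKM. UBE2C, PTTG1 and CDC20, which act at the metaphase to anaphase switch, were thus among the most abundant transcripts of the list, and these 3 also changed. At the low end, CENPI, a subunit of the inner kinetochore, averaged 2.40 FPKM and the cohesin protector SGO1 4.07 FPKM.

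Within the list, the 13 kinetochore genes and the 8 late mitotic genes had median changes of opposite sign. Of the kinetochore genes, 5 fell and 0 rose (38.5% called, against 37.1% of all tested features). Their median log2 change was -0.21, and 9 of the 13 had a change below 0. Of these 5 falls, only NDC80 was called with each library left out in turn. SPC24, SPC25, CENPK and CENPN each lost their call in most of these fits. Without knockdown 2, CENPH and CENPM were called in addition, as falls. Without the filter on low values, NDC80 was the 1 fall left. Of the late mitotic genes, 3 rose and 2 fell (62.5% called), with a median of 0.21, and 6 of the 8 had a change above 0. The 2 falls became 1 without control 1, control 2, knockdown 1 or the filter. The difference of the 2 medians was -0.41. Of the 19 members in neither set, 4 rose and 0 fell (21.1% called), with a median of -0.01. At an unadjusted p under 0.05, 6592 of the 13605 tested features would pass. The division into sets was made with earlier results of these data known, so no test of it is given.

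The mean level per library, taken over the same values and sets, restates this contrast and adds no support to it. Averaged over the 13 kinetochore genes, log2(FPKM + 1) was 3.14 and 3.19 in the knockdown libraries, against 3.31 and 3.36 in the controls. Averaged over the 8 late mitotic genes, it was 5.13 and 5.18 in the knockdown libraries, against 4.90 and 4.86 in the controls. CEP55 (log2 change 0.95), PTTG1 (0.63) and CDC20 (0.52) carried most of that higher mean. ANLN (0.148), ECT2 (0.152) and ESPL1 (0.259) were not called, and UBE2C (-0.282) and PRC1 (-0.203) fell. Neither set's libraries overlapped between the groups, and the kinetochore mean was lower and the late mitotic mean higher in both knockdown libraries. The kinetochore mean minus the late mitotic mean was -1.99 ± 0.0045 in the knockdown libraries and -1.55 ± 0.0693 in the controls (SD, n = 2 each). For the 19 other members the means were 4.45 and 4.43 in the knockdown libraries, against 4.43 and 4.40 in the controls, and the groups overlapped.

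**Figure D3:**
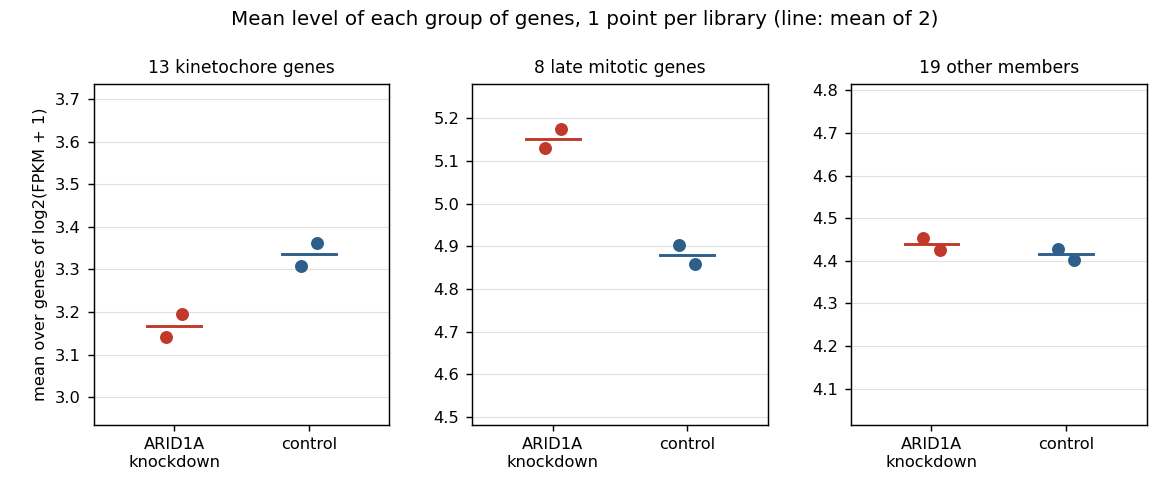
Mean of log2(FPKM + 1) over the 13 kinetochore genes, the 8 late mitotic genes and the 19 other members, with 1 point per library and a line at the mean of the 2 libraries of a group. Each panel spans the same range of log2 units. The knockdown libraries lie below the controls in the kinetochore panel and above them in the late mitotic panel.

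Within the outer kinetochore, 3 of the 4 subunits of the NDC80 complex fell and NUF2 stood apart. By comparison, 18.9% of all tested features fell. NDC80 (chr18:2571557-2616635), the subunit that binds the microtubule, had 10.4 and 10.1 FPKM in the knockdown libraries, against 14.0 and 14.6 FPKM in the controls. Its groups did not overlap, and the change was -0.45 (SE 0.0516, limma adjusted p = 0.00469). It was called with each of the 4 libraries left out in turn (adjusted p = 0.0242 to 0.0378). SPC25, which with SPC24 anchors the complex to the kinetochore, had 11.04 and 11.1 FPKM in the knockdown libraries, against 13.4 and 14.4 FPKM in the controls. The knockdown libraries lay close together below both controls, and the log2 change was -0.30 (SE 0.0546, limma adjusted p = 0.0151). Its call was lost without control 2 (limma adjusted p = 0.0755), without knockdown 1 (0.0635) and without knockdown 2 (0.0544). SPC24 had 4.07 and 4.37 FPKM in the knockdown libraries, against 6.36 and 5.28 FPKM in the controls. The controls differed more from each other than the knockdown libraries did, and the log2 change of -0.38 (SE 0.1, limma adjusted p = 0.0398) was no longer called without control 1 (0.129), knockdown 1 (0.142) or knockdown 2 (0.0888), with quantile normalization (0.0591) or without the filter (0.139). NUF2, the partner that forms a dimer with NDC80, had 11.2 and 11.9 FPKM in the knockdown libraries, against 11.1 and 11.3 FPKM in the controls, and did not pass the test (log2 change 0.04, limma adjusted p = 0.592).

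Some members overlap other genes at their loci, SPC24, SPC25, NUF2 and CENPA among them. No label says whether the counting used strand, so reads of these genes and of their partners on the opposite strand may be mixed. NOSTRIN, opposite SPC25, had 2.80 and 3.46 FPKM in the knockdown libraries, against 1.88 and 2.26 FPKM in the controls, and was thus higher in both knockdown libraries. RGS5, opposite NUF2, averaged 3.11 FPKM. A gene opposite SPC24, not reported here, averaged more than SPC24 itself. CENPA shares bases with SLC35F6 on the same strand, which averaged 16.8 FPKM, against 9.95 FPKM for CENPA. No feature with a mean of at least 1 FPKM overlaps NDC80, and 9 of the 40 members are overlapped by one.

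Among the 7 inner kinetochore genes, CENPK and CENPN fell and the other 5 did not pass the test (28.6% called, against 37.1% of all tested features). CENPK, a subunit of the constitutive centromere-associated network, had 5.33 FPKM in both knockdown libraries, against 6.92 and 6.67 FPKM in the controls. The groups were well apart (log2 change -0.30, SE 0.0599, limma adjusted p = 0.0198), yet the call was lost with any 1 library left out, with adjusted p-values between 0.072 (without control 2) and 0.0937 (without control 1). CENPN, which reads the centromeric nucleosome, had 34.7 and 31.5 FPKM in the knockdown libraries, against 38.4 and 38.2 FPKM in the controls. Its call at a log2 change of -0.21 (SE 0.0568, limma adjusted p = 0.0451) was lost without control 1 (0.162), control 2 (0.156) or knockdown 2 (0.106), and also with median-ratio scaling (0.0527), without the variance trend (0.0766), without the filter on low values (0.128) and after rescaling without mitochondrial transcripts (0.0692). CENPN was thus called in 4 of the 12 alternative analyses. CENPN shares its locus with CMC2 on the opposite strand, which had 107.3 and 112.0 FPKM in the knockdown libraries, against 103.8 and 105.2 FPKM in the controls.

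CENPH, another subunit of that network, had the lowest value of log2 change among the members but also the widest spread. It had 7.07 and 10.5 FPKM in the knockdown libraries, against 13.4 and 12.4 FPKM in the controls. Both knockdown libraries were below both controls, but they differed from each other by more than the higher of them differed from the controls. The change of -0.53 had an unadjusted 95% confidence interval of -0.99 to -0.07 and did not pass the test (limma adjusted p = 0.0736). Without knockdown 2 the change was -0.79 and was called (limma adjusted p = 0.011), as it was at -0.53 after rescaling without mitochondrial transcripts (0.047). CENPM, also of that network, had 11.5 and 13.3 FPKM in the knockdown libraries, against 14.7 and 15.0 FPKM in the controls (log2 change -0.24, limma adjusted p = 0.0645). It was called only without knockdown 2 (0.0336) or after rescaling without mitochondrial transcripts (0.04), among the alternatives run.

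The remaining kinetochore genes showed no call. CENPA, the histone variant that marks the centromere, had 10.2 and 8.96 FPKM in the knockdown libraries, against 9.98 and 10.6 FPKM in the controls, with overlapping groups. CENPI had 2.13 and 2.52 FPKM in the knockdown libraries, against 2.15 and 2.79 FPKM in the controls. CENPW, a histone-fold subunit of the same network, had 8.97 and 8.48 FPKM in the knockdown libraries, which lay between the control values of 7.44 and 9.57 FPKM. In the outermost layer, the corona, CENPE had values higher in both knockdown libraries, with 2.44 and 2.39 FPKM in the knockdown libraries, against 1.83 and 1.78 FPKM in the controls. Its change of 0.28 missed the threshold (limma adjusted p = 0.0599) and passed it with quantile normalization (0.04) and without the trend in the variance (0.0188). CENPF, a large corona protein, had 7.41 and 7.88 FPKM in the knockdown libraries, inside the control range of 6.87 to 8.14 FPKM.

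**Figure D4:**
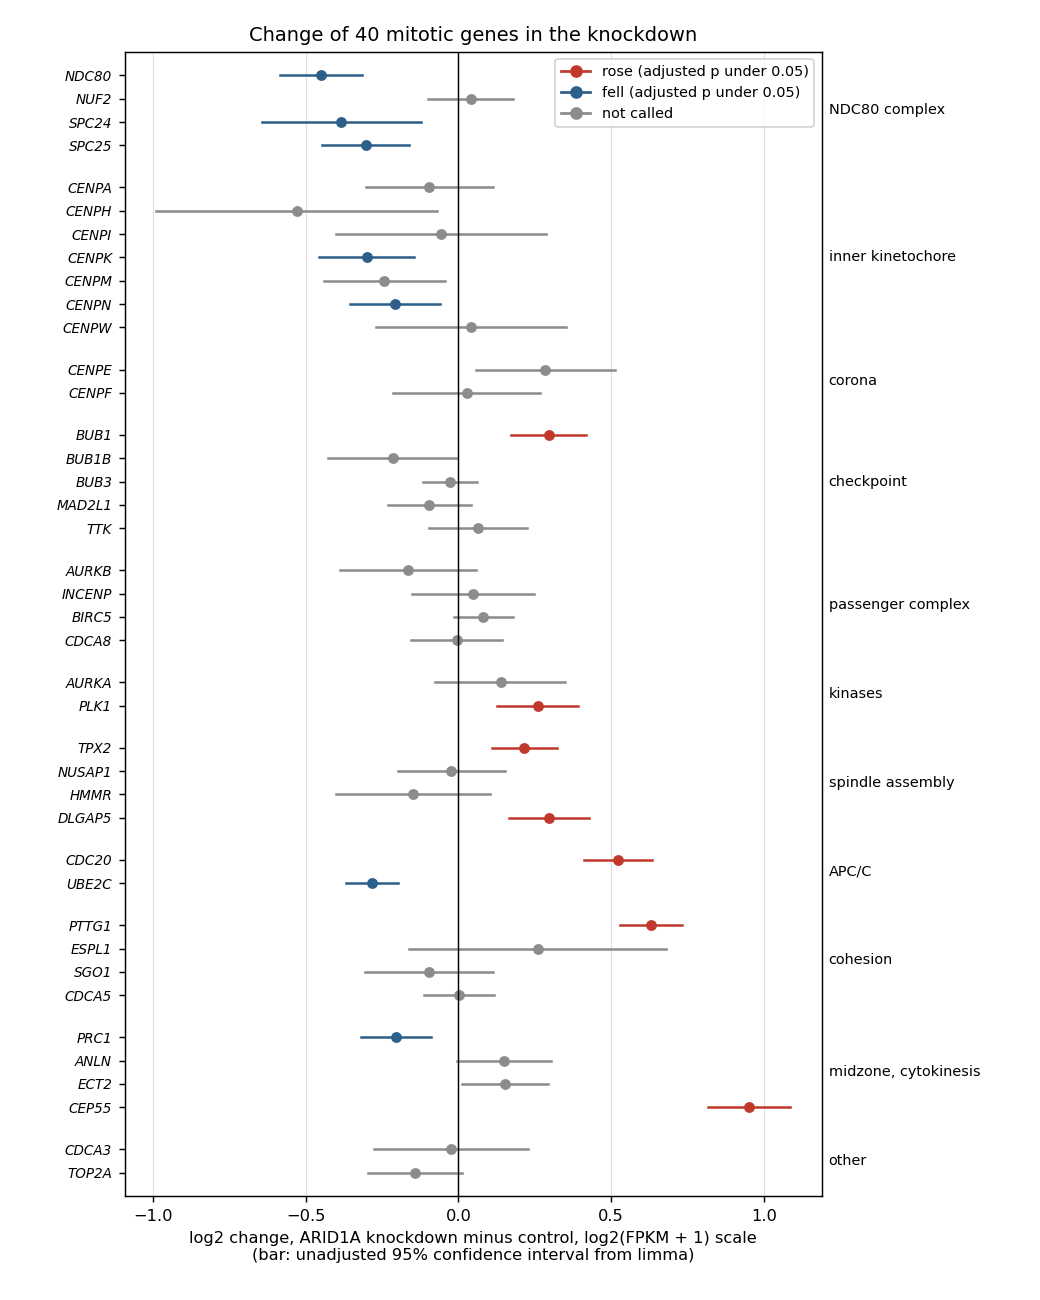
Log2 change of each member, ARID1A knockdown minus control on the log2(FPKM + 1) scale, with the unadjusted 95% confidence interval from limma, coloured by whether it rose, fell or was not called at an adjusted p under 0.05. CEP55 (0.95), PTTG1 (0.63) and CDC20 (0.52) lie farthest to the right, and CENPH (-0.53, not called) and NDC80 (-0.45) farthest to the left.

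The late mitotic set held the members with the largest rises. CEP55 (chr10:93496612-93529092), which recruits the abscission machinery to the midbody, had 33.3 and 33.7 FPKM in the knockdown libraries, against 16.2 and 17.5 FPKM in the controls. The means were 33.5 ± 0.262 and 16.8 ± 0.877 FPKM (SD, n = 2 each), a ratio of 1.99, and the libraries of a group lay close together. The log2 change was 0.95 (SE 0.0513, limma adjusted p = 8.4e-04). PTTG1 (chr5:160421855-160428739), securin, had 99.1 and 94.9 FPKM in the knockdown libraries, against 62.4 and 62.3 FPKM in the controls. The means were 97.01 ± 3.002 and 62.3 ± 0.0695 FPKM (SD, n = 2 each), a ratio of 1.56, and the log2 change was 0.63 (SE 0.0387, limma adjusted p = 0.00108). The related copies PTTG2 and PTTG3P were at or under 0.0621 FPKM in each library.

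CDC20 (chr1:43358981-43363203), the APC/C activator that the checkpoint restrains, had 64.2 and 66.6 FPKM in the knockdown libraries, against 46.2 and 44.3 FPKM in the controls. The means were 65.4 ± 1.70 and 45.2 ± 1.32 FPKM (SD, n = 2 each), a ratio of 1.45, and the log2 change was 0.52 (SE 0.0427, limma adjusted p = 0.00208). UBE2C (chr20:45812576-45816957), the enzyme that works with CDC20 on the APC/C, went the opposite way. It had 99.2 and 98.4 FPKM in the knockdown libraries, against 119.5 and 121.1 FPKM in the controls, and its log2 change was -0.28 (SE 0.0328, limma adjusted p = 0.00481). The pseudogene CDC20P1 was at or under 1.18 FPKM and UBE2CP2 at or under 0.676 FPKM in each library. CEP55, PTTG1, CDC20 and UBE2C were called with each library left out in turn. Within each library, the level of CDC20 was 0.647 and 0.677 of that of UBE2C in the knockdown, against 0.386 and 0.366 in the controls. The level of CEP55 was 3.21 and 3.34 times that of NDC80 in the knockdown libraries, against 1.16 and 1.19 times in the controls. Each ratio sets a gene that rose over one that fell, so it restates those changes within a library and adds no support to them.

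PRC1, which bundles midzone microtubules, was the other late gene to fall. It had 32.9 and 34.5 FPKM in the knockdown libraries, against 38.5 and 39.4 FPKM in the controls (log2 change -0.20, SE 0.0441, limma adjusted p = 0.0244). The call was lost without control 1 (0.0935), control 2 (0.123) or knockdown 1 (0.0802). ANLN, the cleavage furrow scaffold, had 17.6 and 16.7 FPKM in the knockdown libraries, against 16.0 and 14.8 FPKM in the controls (log2 change 0.15, limma adjusted p = 0.112). ECT2, the exchange factor that activates RhoA at the furrow, had 29.2 and 28.8 FPKM in the knockdown libraries, against 27.1 and 24.9 FPKM in the controls (log2 change 0.15, limma adjusted p = 0.0868). Neither passed the test, although their groups did not overlap. ESPL1 had 4.29 and 5.96 FPKM in the knockdown libraries, against 4.49 and 3.69 FPKM in the controls, and the interval of its log2 change ran from -0.16 to 0.68. That interval holds both a fall and a rise, while its inhibitor PTTG1 rose. SGO1 had 3.85 and 3.95 FPKM in the knockdown libraries, against 4.004 and 4.484 FPKM in the controls (limma adjusted p = 0.392). CDCA5 (sororin), which stabilises cohesin on chromosomes, had 21.7 and 20.9 FPKM in the knockdown libraries and 21.3 FPKM in both controls, with an interval of -0.11 to 0.12 on the log2 scale.

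Among the 5 checkpoint genes, 1 rose and 0 fell, while 37.1% of all tested features were called, 18.2% upward and 18.9% downward. BUB1, the kinase that starts checkpoint assembly at the kinetochore, had 15.1 and 14.8 FPKM in the knockdown libraries, against 12.1 and 11.8 FPKM in the controls. The groups were well apart (log2 change 0.30, SE 0.0473, limma adjusted p = 0.0109), and the call was lost without control 1 (0.0552), control 2 (0.0646) or knockdown 1 (0.0533). BUB1B (BUBR1), which binds CDC20 in the mitotic checkpoint complex, had 12.9 and 11.7 FPKM in the knockdown libraries, against 15.4 and 13.6 FPKM in the controls (log2 change -0.21, limma adjusted p = 0.0979). MAD2L1 (MAD2), its partner in that complex, had 36.6 and 33.8 FPKM in the knockdown libraries, against 37.2 and 38.1 FPKM in the controls (limma adjusted p = 0.212). BUB3, which carries the BUB proteins to the kinetochore, had 194.2 and 196.8 FPKM in the knockdown libraries, against 201.8 and 196.9 FPKM in the controls, with an interval of -0.12 to 0.06. TTK (MPS1), the kinase that triggers the signal, had 13.02 and 12.3 FPKM in the knockdown libraries, against 12.5 and 11.6 FPKM in the controls, which overlap. BUB1B shares bases with PAK6 on the same strand, which averaged 13.1 FPKM.

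The chromosomal passenger complex, which corrects faulty attachments, gave 0 calls among 4 genes, while 37.1% of all tested features were called. AURKB, its kinase, had 27.3 and 31.0 FPKM in the knockdown libraries, against 30.9 and 34.6 FPKM in the controls (limma adjusted p = 0.196). INCENP, its scaffold, had 11.3 and 10.6 FPKM in the knockdown libraries, against 11.2 and 9.95 FPKM in the controls. BIRC5 (survivin) had 45.5 and 46.5 FPKM in the knockdown libraries, against 43.2 and 43.6 FPKM in the controls, and its groups did not overlap (log2 change 0.08, limma adjusted p = 0.147). CDCA8 (borealin) had 12.6 and 12.3 FPKM in the knockdown libraries, against 12.97 and 12.05 FPKM in the controls, which overlap.

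Among the mitotic kinases and spindle assembly factors, 3 of 6 rose and 0 fell, while 18.2% of all tested features rose and 18.9% fell. PLK1, the kinase that drives several steps of mitosis, had 32.9 and 35.3 FPKM in the knockdown libraries, against 27.9 and 28.7 FPKM in the controls (log2 change 0.26, SE 0.0512, limma adjusted p = 0.0193). TPX2, which activates AURKA on the spindle, had 37.9 and 37.1 FPKM in the knockdown libraries, against 32.6 and 31.7 FPKM in the controls (log2 change 0.22, SE 0.0404, limma adjusted p = 0.0166). DLGAP5 (HURP), which stabilises kinetochore fibres, had 13.9 and 13.6 FPKM in the knockdown libraries, against 11.2 and 10.8 FPKM in the controls (log2 change 0.30, SE 0.0498, limma adjusted p = 0.0125). In each of these genes both knockdown libraries were above both controls, but the calls were not kept when single libraries were left out. Without control 1, control 2 and knockdown 1 the adjusted p was 0.0675, 0.0943 and 0.064 for TPX2 and 0.0536, 0.0699 and 0.0595 for DLGAP5. For PLK1 it was 0.101 without control 1, 0.0779 without control 2 and 0.0592 without knockdown 2. AURKA had 23.3 and 25.0 FPKM in the knockdown libraries, against 23.5 and 20.3 FPKM in the controls (limma adjusted p = 0.245). NUSAP1, which bundles spindle microtubules, had 50.7 and 48.5 FPKM in the knockdown libraries, inside the control range of 47.5 to 53.4 FPKM. HMMR, a spindle pole protein, had 14.4 and 11.8 FPKM in the knockdown libraries, against 14.5 and 14.7 FPKM in the controls, and it was called only without knockdown 1 (log2 change -0.28, limma adjusted p = 0.0498).

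The last 2 members fall outside these roles. TOP2A, the topoisomerase that untangles sister chromatids, had 12.5 and 11.7 FPKM in the knockdown libraries, against 13.8 and 13.1 FPKM in the controls (log2 change -0.14, limma adjusted p = 0.126). CDCA3, an adaptor for the destruction of WEE1, had 9.24 and 9.41 FPKM in the knockdown libraries, inside the control range of 8.60 to 10.5 FPKM. In all, NDC80, UBE2C, CDC20, PTTG1 and CEP55 were the 5 members called in each of the 12 alternative analyses, and none of them overlaps a feature with a mean of at least 1 FPKM.

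The other genes of the mitotic pathway, 139 tested in 10 lists, gave 43 calls, 21 upward and 22 downward, with a median change of -0.01. This share of 30.9% lies below the 37.1% of all tested features called. Of these 43, only KIF18A, KIF20A, FAM83D and CDC25B were called with each library left out in turn. KIF18A, the motor that limits the length of kinetochore microtubules, had 18.3 and 18.7 FPKM in the knockdown libraries, against 11.2 and 10.8 FPKM in the controls (log2 change 0.70, limma adjusted p = 0.00138). FAM83D, which places a kinase on the spindle, had 19.3 and 19.2 FPKM in the knockdown libraries, against 14.6 and 12.7 FPKM in the controls (log2 change 0.47, limma adjusted p = 0.0101). KIF20A, the midzone motor that brings the passenger complex to the cleavage furrow, had 11.8 and 11.6 FPKM in the knockdown libraries, against 7.79 and 7.82 FPKM in the controls (log2 change 0.53, limma adjusted p = 0.00287). CDC25B, a phosphatase that switches on CDK1 at mitotic entry, had 114.6 and 114.3 FPKM in the knockdown libraries, against 61.3 and 61.0 FPKM in the controls (log2 change 0.89, limma adjusted p = 3.6e-04).

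The rest of the kinetochore gave calls in both directions. Of 28 other kinetochore genes, 4 rose and 4 fell (28.6% called, against 37.1% of all tested features), with a median of -0.03. CENPU, which belongs to the same network as CENPK and CENPH, had 9.54 and 7.98 FPKM in the knockdown libraries, against 12.0 and 12.3 FPKM in the controls (log2 change -0.43, limma adjusted p = 0.0221), and lost its call without control 1 (0.0885) or control 2 (0.102). CENPS had 15.0 and 16.1 FPKM in the knockdown libraries, against 22.8 and 20.3 FPKM in the controls (log2 change -0.45, limma adjusted p = 0.0114), and lost its call without control 1 (0.0529) or knockdown 1 (0.0521). SKA1, a subunit of the complex that helps NDC80 follow microtubule ends, had 8.18 and 8.65 FPKM in the knockdown libraries, against 10.8 and 11.7 FPKM in the controls (log2 change -0.38, limma adjusted p = 0.012), lost without control 2 (0.0655) or knockdown 1 (0.0562). SKA2, its partner, rose by 0.35 (limma adjusted p = 0.012), a call lost without control 1 (0.0704). CENPC, which bridges the CENPA nucleosome to the outer kinetochore, had 4.14 and 4.31 FPKM in the knockdown libraries, against 3.014 and 3.001 FPKM in the controls (log2 change 0.38, limma adjusted p = 0.017), with adjusted p-values of 0.0588 to 0.0743 when any 1 library was left out. OIP5, which helps to load CENPA, had 10.2 and 9.40 FPKM in the knockdown libraries, against 7.85 and 6.74 FPKM in the controls (log2 change 0.38, limma adjusted p = 0.0288), lost without control 2 (0.0978), knockdown 1 (0.115) or knockdown 2 (0.0606). It overlaps NUSAP1 on the opposite strand. HJURP, the CENPA chaperone, did not pass the test (limma adjusted p = 0.318).

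**Figure D5:**
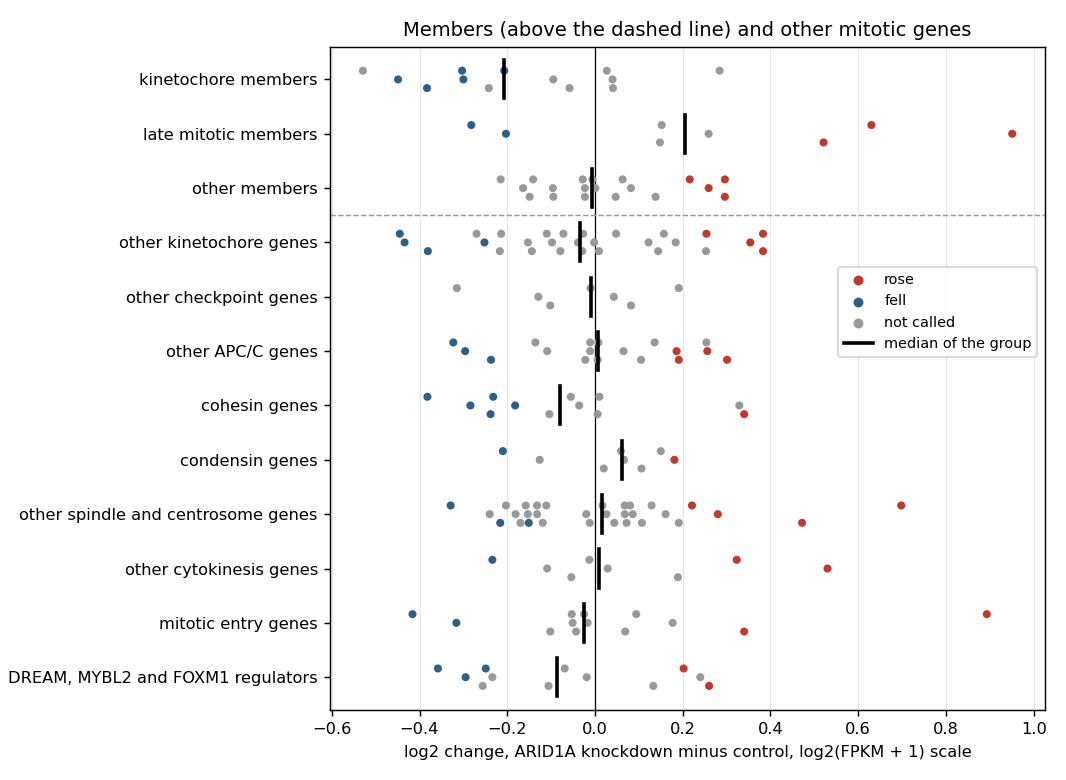
Log2 change, ARID1A knockdown minus control on the log2(FPKM + 1) scale, of each tested gene in the 3 groups of members (above the dashed line) and in 9 lists of other mitotic genes, coloured by call, with a bar at each group's median. The medians of the other lists lie between -0.09 and 0.06, against -0.21 for the kinetochore members and 0.21 for the late mitotic members.

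Among 13 genes of mitotic entry, 2 rose and 2 fell (30.8% called, against 37.1% of all tested features). Beside CDC25B, CCNB1 (cyclin B1) had 84.0 and 86.3 FPKM in the knockdown libraries, against 70.1 and 64.1 FPKM in the controls (log2 change 0.34, limma adjusted p = 0.0109), a call lost without control 2 (0.0512). WEE1, an inhibitory kinase of CDK1, had 11.7 and 10.9 FPKM in the knockdown libraries, against 14.9 and 15.9 FPKM in the controls (log2 change -0.42, limma adjusted p = 0.00924), lost without control 2 (0.0555). PKMYT1, the other inhibitory kinase, had 13.6 and 13.8 FPKM in the knockdown libraries, against 17.5 and 17.2 FPKM in the controls (log2 change -0.32, limma adjusted p = 0.0081), lost without control 1 (0.0563). CDK1 itself had 49.95 and 49.0 FPKM in the knockdown libraries, against 52.8 and 53.5 FPKM in the controls (limma adjusted p = 0.0862), and CCNB2 did not pass the test (0.254). The 7 other checkpoint genes tested gave 0 calls in limma, and BOD1, the one with the highest mean level, had an adjusted p of 0.132.

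The regulators that act on these promoters gave 2 rises and 3 falls among 12 genes (41.7% called, against 37.1% of all tested features), with a median of -0.09. FOXM1 had 14.3 and 14.5 FPKM in the knockdown libraries, against 14.9 and 15.4 FPKM in the controls, and did not pass the test (limma adjusted p = 0.305). MYBL2 fell by 0.25 on the log2 scale (limma adjusted p = 0.0125), a call lost without control 1 (0.0713), control 2 (0.0716) or knockdown 1 (0.0532). Of the DREAM subunits, RBL2 fell by 0.36 (limma adjusted p = 0.0139) and LIN54 by 0.29 (0.0265), while E2F4 rose by 0.26 (0.00862) and TFDP1 by 0.20 (0.0191). Each of these 4 calls was lost without control 1 and without control 2, with adjusted p-values of 0.0766 and 0.0514 for RBL2, 0.0745 and 0.115 for LIN54, 0.0641 and 0.0521 for E2F4 and 0.106 and 0.0628 for TFDP1; LIN54 (0.0885 and 0.0943) and TFDP1 (0.0531 and 0.0622) also lost theirs without knockdown 1 and without knockdown 2. Of the proliferation markers, MKI67 had 9.46 and 8.44 FPKM in the knockdown libraries, against 7.62 and 7.63 FPKM in the controls (limma adjusted p = 0.0801). PCNA, the replication clamp, rose by 0.16 (limma adjusted p = 0.0406), a call lost without control 1 (0.157), control 2 (0.171) or knockdown 2 (0.0936).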

How the data were processed

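Total RNA libraries were made with a NEBNext Ultra kit, per the labels' protocols. The deposited values of each library are FPKM, normalized to transcript length and mapped total, per the file headers. STAR, Cufflinks and GRCh38 are named in the submitters' processing notes. Versions, annotation release and strand setting: not given in the sources used here. From each table of 60811 rows, 45 second copies of pseudoautosomal genes were dropped, and 2347 values under 1e-09 were set to 0.

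Groups were compared as knockdown minus control with limma 3.58.1 in R 4.3.3 (lmFit, eBayes with a trend) on log2(FPKM + 1), for 13605 features with a mean FPKM of at least 1, with Benjamini-Hochberg adjustment at 0.05. A fold change on this scale understates the change of low genes. No count model was fitted to FPKM. Tested on simulated data of 13605 genes with 200 changed, the share recovered was 1.2% for a log2 change of 0.25, 32.8% for 0.5, 75.2% for 1 and 86% for 2. False calls made up 2.79%. In the real data 37.1% of tested features were called, so the adjustment was less strict there than in the simulation. The shares recovered therefore do not carry over to the real comparison.

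Normalizing totals were estimated from the steps between low FPKM values, of which 83.4% to 86.3% fell on whole fragments within 0.1 fragment, against 18.3% to 22.3% after scrambling. They put between 231 (CENPW) and 110716 (BUB3) fragments behind a member's value, with a median of 2948, a counting error of 1.84%. Each member's length was taken from its longest coding transcript. Where shorter transcripts prevail, the fragments are overestimated and the counting error is underestimated. Libraries of a group differed by more than counting error (chi-square per degree of freedom 3.34 in the knockdown and 3.84 in the controls).

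The members, gene lists, sets and naming rule were chosen with earlier results of these data known. The text names all members, up to 3 called genes per pathway list and direction (or, with none called, the one with the highest mean), and FOXM1, MYBL2, CCNB1, CCNB2, CDK1, HJURP, MKI67 and PCNA. Some genes sharing a locus with a member are named beside it, and 1 is not reported here. Promoters came from RefSeq (GRCh38.p14) by symbol, and gene strands from GENCODE release 29. Alternatives changed the pseudocount, the filter, the scaling, the variance trend, the replicate block, the sets and the libraries used.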

Additional observations from a re-analysis of the deposited data

How the results depend on the processing

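With 2 libraries a group, leaving out 1 leaves a lone library that is assumed to vary like the other group. All tested genes called then numbered 2146 to 3368. Members called numbered 6 to 11, of which 3 to 6 rose and 3 to 5 fell, for the kinetochore set 2 to 3, with 0 rising and 2 to 3 falling, and for the late mitotic set 4 to 5, with 3 rising and 1 to 2 falling. The pathway lists gave 9 to 21 calls, 5 to 11 upward and 3 to 12 downward. The difference of the set medians ranged from -0.50 to -0.32, and the ARID1A change from -0.78 to -0.60. Without the filter on low FPKM, 29031 features were tested and 2786 called. Then 8 members were called, 2 of which fell, with 1 kinetochore call, a fall, 1 late mitotic fall and 16 pathway calls (6 upward, 10 downward). The members that lost their calls there were SPC24, SPC25, CENPK, CENPN, PLK1 and PRC1. CENPE gave 1 rising kinetochore call with quantile normalization and without the variance trend. Rescaling without mitochondrial transcripts gave 15 called members, 7 upward and 8 downward, and a difference of set medians of -0.41. The wider late set of 18 genes had 8 calls, 6 upward, and a difference of medians of -0.35, against -0.47 with quantile normalization. The kinetochore median was below 0 and the late mitotic median above 0 in every setting run. Each setting reused these sets and libraries, so this adds no independent support for the contrast.

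No pairing by replicate number was seen, since same-numbered libraries' deviations correlated at -0.00993 over 13605 features. Whether same-numbered libraries were prepared together cannot be told from this value. With the replicate number as a block, 4126 genes were called, among them 7 rising and 5 falling members, with 3 kinetochore calls, all falls. SPC24 (limma adjusted p = 0.0644) and CENPN (0.0583) lost their calls under it. A filter at a mean of 5 FPKM gave no value for CENPI, CENPE, ESPL1 and SGO1.

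The log2 change of 8 members that did not pass the test changed sign. With quantile normalization it was 0.01 for CENPI and for CDCA8, -0.009 for CDCA5 and 0.005 for CDCA3. Rescaling without mitochondrial transcripts, chosen after seeing the data, gave -0.004 for CDCA5. With 1 library left out it ranged from -0.193 to 0.077 for CENPI, -0.121 to 0.203 for CENPW, -0.082 to 0.135 for CENPF, -0.032 to 0.126 for INCENP, -0.055 to 0.043 for CDCA8, -0.106 to 0.06 for NUSAP1, -0.026 to 0.028 for CDCA5 and -0.151 to 0.105 for CDCA3. The cause was not tested for any of these.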

Other observations

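Cohesin and condensin genes, which hold and compact the sister chromatids that the members pull apart, gave calls in both directions. Of 12 cohesin genes, 1 rose and 5 fell (6 of 12 called, against 37.1% of all tested features), with a median log2 change of -0.08. The release factors PDS5A and PDS5B went opposite ways, with changes of 0.34 (limma adjusted p = 0.0126) and -0.38 (0.00833). PDS5A lost its call without control 1 (0.0545) or control 2 (0.0743), and PDS5B without control 1 (0.0541). ESCO1, an acetyltransferase of cohesin, fell by 0.28 (limma adjusted p = 0.0227) and the cohesin subunit STAG1 by 0.24 (0.0354), and both lost their calls with any 1 library left out (adjusted p from 0.0631 to 0.133). Of 8 condensin genes, 1 rose and 1 fell (25.0% called), with a median of 0.06: NCAPH2 changed by 0.18 (limma adjusted p = 0.029) and NCAPG by -0.21 (0.0226), each lost with any 1 library left out (adjusted p from 0.0653 to 0.127).

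Of 18 other APC/C genes, 4 rose and 3 fell (38.9% called, against 37.1% of all tested features), with a median of 0.01. FBXO5 (EMI1), the interphase inhibitor of the complex, changed by -0.32 (limma adjusted p = 0.0129), a call lost without control 1 (0.0606) or control 2 (0.0748). ANAPC16 changed by -0.30 (limma adjusted p = 0.00759; without control 2, 0.0565) and ANAPC13 by -0.24 (0.0239). ANAPC4, ANAPC5 and UBE2D1 changed by 0.30, 0.26 and 0.19 (limma adjusted p = 0.0218, 0.0314 and 0.0439). The calls of ANAPC13, ANAPC4, ANAPC5 and UBE2D1 were lost with any 1 library left out (adjusted p from 0.053 to 0.16). Of 31 other spindle and centrosome genes, 4 rose and 3 fell (22.6% called), with a median of 0.02. The 3 that fell were HAUS4 (-0.33), HAUS6 (-0.22) and HAUS2 (-0.15), subunits of the augmin complex that seeds microtubules inside the spindle (limma adjusted p = 0.0176, 0.038 and 0.043), and each lost its call without control 1, control 2 or knockdown 1 (adjusted p from 0.0503 to 0.157). HAUS6 and HAUS2 also lost theirs without knockdown 2. The other augmin subunits in the list were not called, and their changes had both signs. GTSE1 changed by 0.28 (limma adjusted p = 0.0498), lost with any 1 library left out (0.0776 to 0.181). Of 8 other cytokinesis genes, 2 rose and 1 fell (37.5% called), with a median of 0.01. Beside KIF20A, KIF20B rose by 0.32 (limma adjusted p = 0.0285), lost with any 1 library left out (0.0656 to 0.111), and RHOA, the GTPase that contracts the furrow, fell by 0.23 (0.00675), lost without control 1 (0.0641) or control 2 (0.0651).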
